A study of Mus musculus with 4 samples.

Results

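Secreted antimicrobial genes of the colon lining were followed in mice with chemically induced colitis that lacked, or kept, the histone methyltransferase Ezh2 in the intestinal epithelium. The set was a fixed list of 10 genes out of 18872 genes listed in at least 1 library. It holds the C-type lectins Reg3b, Reg3g and Reg3a, the ribonuclease Ang4, the iron-withholding proteins Lcn2 and Ltf, the phospholipase Pla2g2a, the scavenger receptor protein Dmbt1, the lectin Itln1 and the peptidoglycan recognition protein Pglyrp1. Of the 10, 9 were listed with a count in some library and 8 had enough counts to be tested.

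One group of mice had the genotype EZH2-IEC-/- (KO below), and the other was wild type (WT). Both were given DSS (dextran sulfate sodium, which damages the lining of the colon and induces colitis) at 2% over 3 days, and primary colon epithelial cells were then isolated from them. Each group had 2 libraries, numbered as replicates 1 and 2, and as the labels name no separate animals, the p-values cover only the spread between libraries, which may be technical. Strain, age, sex and the driver of the deletion are not given in the labels, and untreated mice were not analysed here, so no value below shows an effect of DSS itself. The estimated counts summed to 5399949 and 5446998 in KO libraries, against 5037367 and 5236519 in WT libraries. Ezh2 had 86 and 83 counts in KO libraries, against 105 and 102 in WT libraries (edgeR adjusted p = 0.217), which does not test the labels, since a loss of exons need not lower a count over all of them. Markers of colon epithelium were abundant in every library. Over 10 genes they summed to 9977 and 10353 FPKM in KO libraries and 9362 and 9654 FPKM in WT libraries. Single markers moved in both directions, with 6 of the 10 higher and 3 lower in KO by edgeR (23.0% and 20.8% of all genes tested).

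Secreted antimicrobial proteins keep bacteria away from the gut lining. Reg3 lectins bind bacterial cell walls, and Reg3g in mice acts on Gram-positive bacteria. Interleukin-22, through STAT3, and interleukin-17, through NF-κB, are known inducers of several of these genes in gut epithelium. Lcn2 and Ltf withhold iron, Lcn2 by binding bacterial siderophores, and Lcn2, Ltf and Pglyrp1 are also stored in neutrophil granules. Ang4 and Itln1 are known from Paneth and goblet cells. Ezh2 is the catalytic subunit of Polycomb repressive complex PRC2, which trimethylates histone H3 at lysine K27 and keeps genes silent.

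The 3 Reg3 members lie in a cluster on chromosome 6, and the bases before their transcription starts are shown because Reg3b and Reg3g were counted in KO libraries and their neighbour Reg3a was not. Each sequence is the 250 bases before the annotated start, 5′ to 3′ on the gene's own strand, from RefSeq (GRCm38.p6). Capitals mark matches, on either strand, to STAT (TTCNNNGAA), NF-κB (GGANTTTCC), AP-1 (TGANTCA), C/EBP (TTGCNNAA) and TATA box (TATAAA) motifs. Pglyrp1 is added as the member whose window holds an NF-κB match.
Reg3b, chr6:78370635-78370884, plus strand: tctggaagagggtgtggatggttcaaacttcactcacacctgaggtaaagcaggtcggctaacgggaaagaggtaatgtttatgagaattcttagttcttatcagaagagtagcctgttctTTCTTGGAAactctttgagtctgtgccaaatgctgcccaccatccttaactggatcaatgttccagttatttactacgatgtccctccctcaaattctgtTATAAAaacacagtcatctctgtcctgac
Reg3g, chr6:78468875-78469124, minus strand: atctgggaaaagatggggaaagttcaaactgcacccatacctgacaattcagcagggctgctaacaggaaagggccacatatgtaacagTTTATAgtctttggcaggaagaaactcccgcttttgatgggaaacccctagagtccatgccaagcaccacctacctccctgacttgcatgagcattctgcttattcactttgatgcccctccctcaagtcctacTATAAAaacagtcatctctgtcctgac
Reg3a, chr6:78380459-78380708, plus strand: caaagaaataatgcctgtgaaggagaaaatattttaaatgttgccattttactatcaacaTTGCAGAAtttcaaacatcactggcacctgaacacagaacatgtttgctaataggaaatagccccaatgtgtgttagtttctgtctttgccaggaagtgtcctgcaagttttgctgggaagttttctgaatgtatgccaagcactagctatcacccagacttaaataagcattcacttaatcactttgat
Pglyrp1, chr7:18884440-18884689, plus strand: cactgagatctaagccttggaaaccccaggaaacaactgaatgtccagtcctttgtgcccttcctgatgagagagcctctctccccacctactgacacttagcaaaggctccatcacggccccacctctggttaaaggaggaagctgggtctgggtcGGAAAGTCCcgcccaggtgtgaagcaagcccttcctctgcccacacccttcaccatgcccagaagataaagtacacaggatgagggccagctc

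The Reg3b and Reg3g windows were alike, with 177 identical bases over 257 columns of a global alignment (68.9%) and a TATAAA starting 29 and 27 bases before the start. The Reg3b window also held a STAT match, TTCTTGGAA, starting 129 bases before the start, and the Reg3g window held none. The Reg3a window held a C/EBP match and no TATAAA, and its place depends on where the annotation puts the start. This window ends in tcactttgat, letters that the Reg3g window holds before the TATAAA near its start. The Reg3a window may thus stop short of the matching stretch, and its lack of TATAAA cannot be read as a difference between the genes. Of 10 members, 8 had a window in the RefSeq table, and STAT matches were found in 2 of these (Reg3b and Ang4), C/EBP matches in 3 (Reg3a, Lcn2 and Ltf), and an AP-1 match in 1 (Ang4). Over 32851 windows of the same length, 7.02% held a STAT match, 1.07% an NF-κB match, 6.75% an AP-1 match, 9.56% a C/EBP match and 12.4% a TATA box match. A match is only a stretch of letters, and factor binding was not measured.

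Among the Reg3 lectins, Reg3b and Reg3g rose in KO epithelium and Reg3a was not listed in any library. Reg3b had 73 and 85 counts in KO libraries, against 0 and 0 in WT libraries, and its level was 18.35 and 21.17 FPKM in KO libraries. FPKM is the count scaled to transcript length and library total. With a floor of 3 counts per WT library, Reg3b was at least 26.7-fold higher in KO (edgeR adjusted p = 2.03e-05). Reg3g had 61 and 95 counts in KO libraries, against 2 and 2 in WT libraries, which are levels of 15.02 and 23.18 FPKM in KO and 0.53 and 0.51 FPKM in WT. Its log2 fold change was 5.22 ± 0.45 (SE, edgeR adjusted p = 3.36e-05), and the ratio of summed counts scaled to library size was 39.6, with an exact 95% interval of 15.2 to 147 for counting error only. Each KO library was above each WT library for both genes, and within a KO library both lectins stood at a like level, with a ratio of Reg3g to Reg3b FPKM of 0.818 in replicate 1 and 1.09 in replicate 2.

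The rest of the chromosome 6 cluster was at or near 0. In the order Reg3b, Reg3d, Reg3a, Reg2, Reg1, the pseudogene Gm52853 and Reg3g, the 5 genes between the outer pair had 1 count in all, a single Reg2 count in KO replicate 1. A gene at 0 is simply missing from a library's file, so for Reg3d, Reg3a, Reg1 and Gm52853, missing from all 4 files, an unexpressed gene and one left out of the annotation look the same. The longest run of identical bases between any Reg3b and Reg3g transcript was 35 bases, and 24 bases between either of them and Reg3a. All counts of the 9 listed members were whole numbers, with no fraction shared with another gene.

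**Figure D1:**
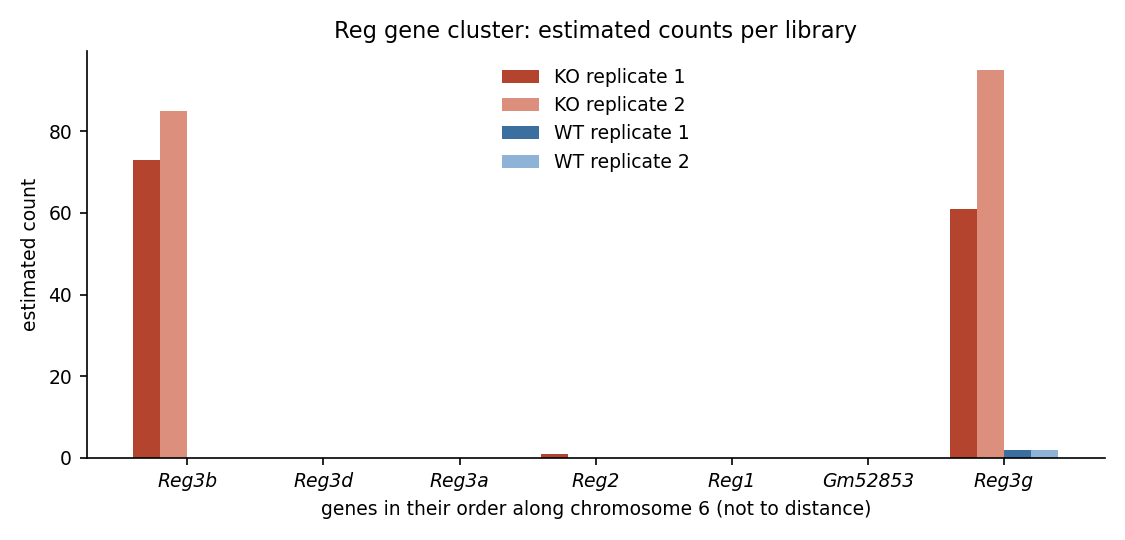
Estimated counts (vertical axis) of the Reg genes of chromosome 6, in their order along the chromosome, with a bar per library and KO bars left of WT bars. Reg3b and Reg3g stood at 61 to 95 counts in KO libraries and at 0 to 2 in WT libraries, and Reg2 had 1 count.

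The iron-withholding proteins were higher in KO as well. Ltf (lactoferrin) had 292 and 305 counts in KO libraries, against 5 and 5 in WT libraries, levels of 19.61 and 20.3 FPKM in KO and 0.36 and 0.35 FPKM in WT. Its replicates lay close together in each group, and its log2 fold change was 5.89 ± 0.21 (SE, edgeR adjusted p = 2.0e-07), a scaled count ratio of 60.6 with an interval of 32.7 to 127. Lcn2 (lipocalin 2) had 168 and 107 counts in KO libraries, against 10 and 6 in WT libraries, levels of 37.37 and 23.59 FPKM in KO and 2.39 and 1.38 FPKM in WT. The KO libraries differed from each other by a factor of 1.59 for Lcn2, and both were far above WT. The log2 fold change of Lcn2 was 4.10 ± 0.36 (SE, edgeR adjusted p = 3.32e-05), a scaled count ratio of 17.5 with an interval of 10.6 to 31.0.

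Pglyrp1, which binds bacterial peptidoglycan, was abundant in both genotypes and rose in KO. It had 4217 and 4347 counts in KO libraries, against 1198 and 1249 in WT libraries, levels of 1201 ± 18.2 FPKM in KO and 363 ± 0.67 FPKM in WT (SD, n = 2 each). Replicates of a group were close beside the gap between groups. The log2 fold change was 1.83 ± 0.08 (SE, edgeR adjusted p = 4.57e-07). By mean FPKM, Pglyrp1 ranked 40th among all listed genes in KO and 214th in WT.

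Because Lcn2, Ltf and Pglyrp1 are also neutrophil granule genes, neutrophil markers were read beside them. Of 15 markers, 5 (Mpo, Elane, Prtn3, Mmp8 and Ngp) were not listed in any library and Camp had at most 1 count in any library. Retnlg had 3 and 3 counts and Fpr1 4 and 3 counts in KO libraries, and both had 0 and 0 in WT libraries. Mmp9 had 9 and 8 counts in KO libraries, against 5 and 5 in WT libraries. Camp, Retnlg, Fpr1 and Mmp9 had too few counts to be tested. Ly6g was listed by the replicate 2 files alone, with 1015 and 1137 counts in KO and WT, and is not a measurement of genotype. Of the 5 others tested, 4 were higher in KO by edgeR (23.0% of all genes tested) and 1 did not pass, and their median log2 fold change was 3.23. Of these 5, 2 (S100a8 and S100a9) reached the count filter through the KO libraries, and 62.3% of all such genes were called higher. The count of 4 therefore cannot be read against 23.0%. Without Ly6g the summed marker level was 464 and 399.5 FPKM in KO libraries, against 41.1 and 42.6 FPKM in WT libraries, and most of it was Cd177, with 306 and 266 FPKM in KO libraries and 33.8 and 31.6 FPKM in WT libraries. S100a8 and S100a9, in this list and also made by inflamed epithelium, are described below. Macrophage markers summed to 463 and 509 FPKM in KO libraries, against 333 and 356 FPKM in WT libraries, with 6 of 9 higher (23.0% of all genes tested) and 3 that did not pass. The part of other cell types in the member values was not tested, and in bulk libraries more cells of a type and more RNA per cell cannot be told apart.

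Pla2g2a, the secreted group IIA phospholipase that hydrolyses bacterial membranes, rose in KO epithelium and was near 0 in WT. It had 157 and 132 counts in KO libraries, against 5 and 1 in WT libraries, levels of 37.15 and 30.96 FPKM in KO and 1.29 and 0.24 FPKM in WT. The log2 fold change was 5.55 ± 0.39 (SE, edgeR adjusted p = 8.42e-06), a scaled count ratio of 48.9 with an interval of 22.2 to 134. The few WT counts set the size: the log2 fold change was 7.04 without WT replicate 1 and 4.81 without WT replicate 2. RefSeq annotates Pla2g2a in its C57BL/6J assembly as a transcribed pseudogene, that strain being known for a frameshift in the gene. The strain of these mice is not given in the labels, so the counts show transcript and not protein.

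Ang4, an angiogenin-family ribonuclease with activity against gut bacteria, had KO replicates less even than those of the other 7 tested members. It had 48 and 19 counts in KO libraries, against 6 and 12 in WT libraries, levels of 13.24 and 5.19 FPKM in KO and 1.78 and 3.41 FPKM in WT. The groups did not overlap, but KO replicate 1 was 2.55 times KO replicate 2 after scaling. The log2 fold change was 1.91 ± 0.54 (SE, edgeR adjusted p = 0.019). With a library left out, 1 group holds a single library that is assumed to vary like the other group, so the spread comes from the other group alone. In such fits Ang4 fell short of the threshold without KO replicate 1 (1.08, edgeR adjusted p = 0.235) and without WT replicate 1 (1.51, edgeR adjusted p = 0.0694), and over all 12 alternatives its adjusted p ran between 5.34e-05 and 0.235. The ratio of KO to WT was 8.01 within replicate number 1 and 1.63 within number 2.

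Itln1 (intelectin 1), which binds microbial glycans, stayed low in both groups. It had 4 and 6 counts in KO libraries, against 8 and 4 in WT libraries, levels of 0.65 and 0.97 FPKM in KO and 1.4 and 0.67 FPKM in WT. The groups overlapped, and Itln1 did not pass the count filter. The scaled count ratio was 0.846 with an interval of 0.328 to 2.14, so a difference of up to about that size in either direction was not detectable at this depth. With no filter its log2 fold change was -0.23 (edgeR adjusted p = 0.845), and DESeq2 gave -0.24 (adjusted p = 0.932).

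Dmbt1, a secreted scavenger receptor protein that binds and aggregates bacteria, was the most abundant member and had the smallest fold change of the 8 tested. It had 58913 and 57006 counts in KO libraries, against 33172 and 32546 in WT libraries, levels of 1685 ± 49.9 FPKM in KO and 1010.1 ± 41.5 FPKM in WT (SD, n = 2 each). By estimated count it was gene number 2 and 1 in the KO libraries and number 3 and 2 in the WT libraries. The log2 fold change was 0.84 ± 0.05 (SE, edgeR adjusted p = 2.71e-06), or 0.74 with library totals as the scale. Dmbt1 alone made up 1.07% of all counts in KO libraries, against 0.64% in WT libraries.

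**Figure D2:**
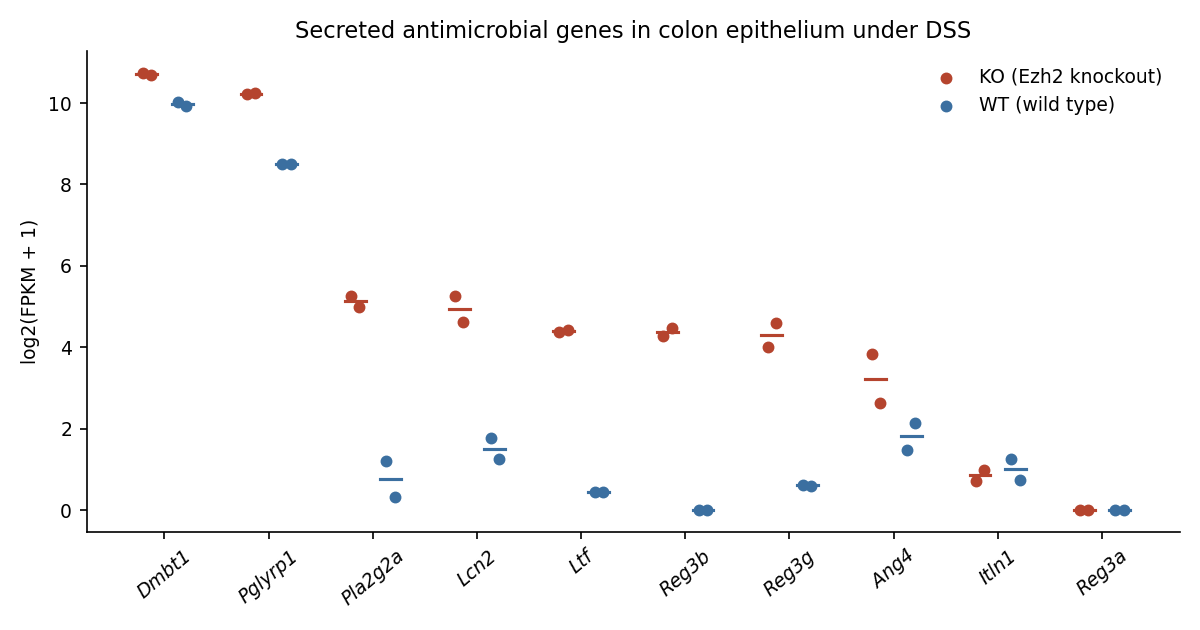
Level of each of the 10 members as log2(FPKM + 1), with a point per library, a line at the group mean, and KO left of WT. Dmbt1 and Pglyrp1 stood above the rest in both groups, and 6 further members were higher in KO than in WT, with the smallest gap for Ang4. Itln1 overlapped between groups and Reg3a was at 0 in all 4 libraries.

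The members fell into an abundant pair and a low group. Dmbt1 and Pglyrp1 held 98.7% and 98.8% of all member counts in KO libraries and 99.9% in each WT library. The 6 lower members that were tested (Reg3b, Reg3g, Lcn2, Ltf, Pla2g2a and Ang4) summed to 141 and 124 FPKM in KO libraries, against 6.35 and 5.89 FPKM in WT libraries. By mean FPKM the order in KO was Dmbt1, Pglyrp1, Pla2g2a, Lcn2, Ltf, Reg3b, Reg3g, Ang4, Itln1. Within that order Pla2g2a and Lcn2 (34.05 ± 4.38 and 30.5 ± 9.74 FPKM) and then Ltf, Reg3b and Reg3g (19.95 ± 0.49, 19.8 ± 1.99 and 19.1 ± 5.77 FPKM) were closer than the spread of their libraries (SD, n = 2 each). In WT, Ang4 at 2.6 ± 1.15 and Lcn2 at 1.89 ± 0.71 FPKM followed Pglyrp1, Itln1 came next at 1.04 ± 0.52 FPKM, and Pla2g2a, Reg3g, Ltf and Reg3b were below them. All members together took 1.18% and 1.14% of counts in KO libraries, against 0.683% and 0.646% in WT libraries.

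Of the 8 tested members, 8 were higher and 0 lower in KO by edgeR, where 23.0% of 13608 genes were called higher and 20.8% lower, 43.7% in either direction. At an unadjusted p below the threshold 0 were lower, and DESeq2 also called 0 lower. This count cannot be read against 23.0%, because 6 of the 8 reached the count filter through the KO libraries. Among all 382 genes that were past the filter in both KO libraries and fewer than 2 WT libraries, 62.3% were called higher. The other 2 members, Dmbt1 and Pglyrp1, were past it in all 4 libraries, as were 12299 genes, of which 23.5% were called higher.

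**Figure D3:**
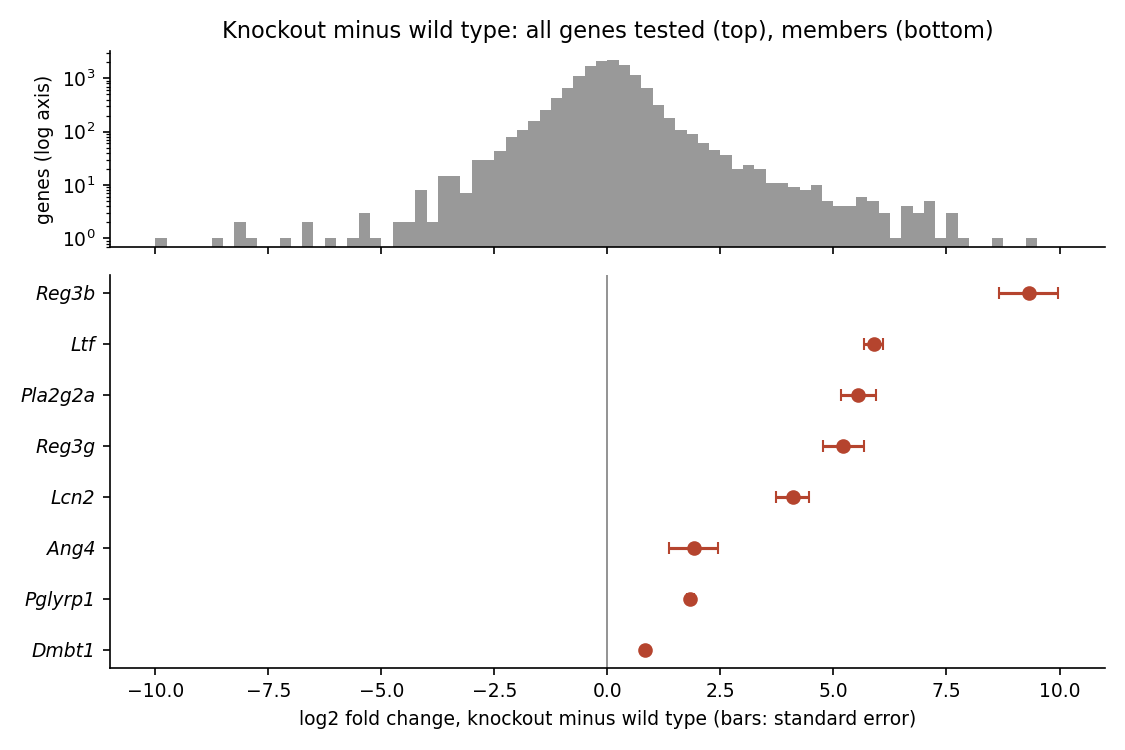
Log2 fold changes, KO minus WT, of all 13608 genes tested (top, gene numbers on a log axis) and of the 8 tested members with standard errors (bottom). All 8 points are right of 0, between 0.84 for Dmbt1 and Reg3b, whose fitted point rests on no WT count and is not a measured size.

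With 1 library left out, each of the 8 tested members kept a log2 fold change above 0. Ang4 ran between 1.08 without KO replicate 1 and 2.45 without WT replicate 2. The log2 fold change ran between 5.86 and 5.90 for Ltf, between 1.82 and 1.84 for Pglyrp1 and between 0.80 and 0.88 for Dmbt1. Reg3g ran between 4.88 without KO replicate 2 and 5.49 without KO replicate 1, and Lcn2 between 3.73 without KO replicate 1 and 4.53 without WT replicate 1. Within replicate numbers 1 and 2, the KO to WT ratio was 30.6 and 48.9 for Reg3g, 58.5 and 62.8 for Ltf, 16.8 and 18.4 for Lcn2, 31.5 and 136 for Pla2g2a, 3.53 and 3.58 for Pglyrp1 and 1.78 and 1.8 for Dmbt1.

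**Figure D4:**
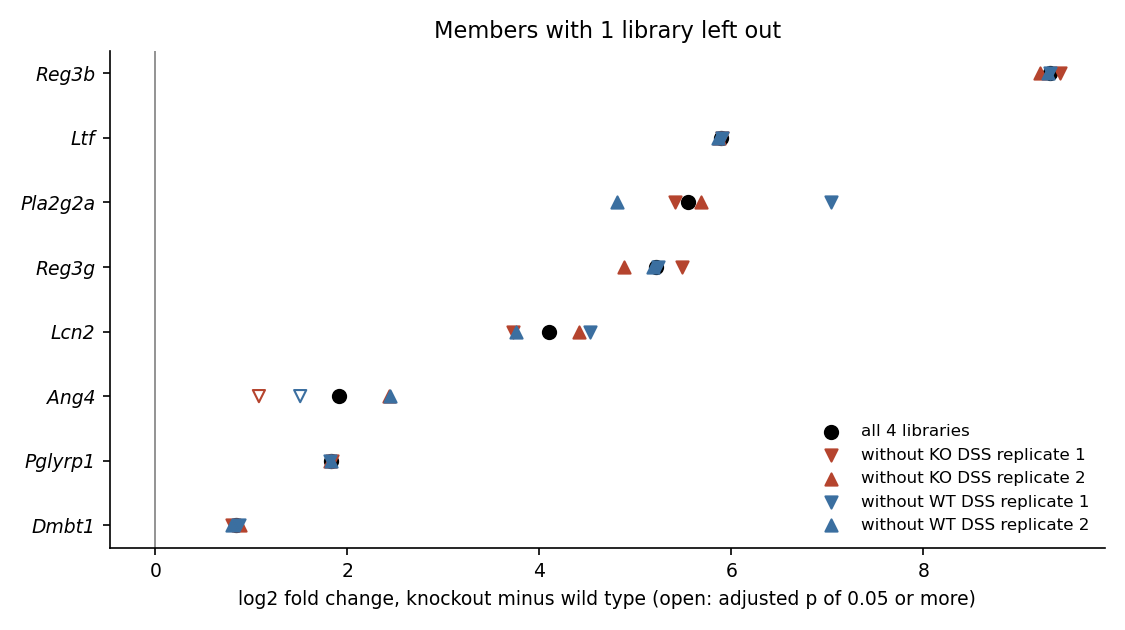
Log2 fold change, KO minus WT, of each tested member with all 4 libraries (black) and with each library left out in turn (triangles, red for a KO library and blue for a WT library left out). Open triangles mark an adjusted p of 0.05 or more, which occurs for Ang4 without KO replicate 1 and without WT replicate 1.

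The wider set of secreted antimicrobial genes moved in both directions. Of 26 listed by name, 25 matched a gene, 20 were listed with a count and 14 were tested, of which 6 were higher and 5 lower in KO (23.0% and 20.8% of all genes tested), with a median log2 fold change near that of all genes. Of the 14, 2 (S100a8 and S100a9) reached the count filter through the KO libraries, and 62.3% of all such genes were called higher. Retnlb, a goblet cell protein that disrupts bacterial membranes, had 1264 and 1045 counts in KO libraries, against 10 and 19 in WT libraries (log2 fold change 6.33 ± 0.21 SE, edgeR adjusted p = 1.4e-07). Slpi, a protease inhibitor with antibacterial activity, had 2017 and 2407 counts in KO libraries, against 74 and 64 in WT libraries (5.02 ± 0.14 SE, edgeR adjusted p = 4.8e-08). S100a8 and S100a9, the calprotectin subunits that bind zinc and manganese, had 192 and 177 counts (S100a8) and 142 and 90 counts (S100a9) in KO libraries, against 3 and 5 counts (S100a8) and 2 and 3 counts (S100a9) in WT libraries. Their log2 fold changes were 5.51 ± 0.27 and 5.49 ± 0.43 (SE, edgeR adjusted p = 1.09e-06 and 1.74e-05). Another pair of genes moved the other way among the 6 with the smallest p: Reg4, a Reg-family lectin of deep crypt secretory cells, had 256 and 395 counts in KO libraries, against 1051 and 1187 in WT libraries (-1.76 ± 0.17 SE, edgeR adjusted p = 6.38e-05), and Wfdc2, a whey acidic protein domain gene, had 712 and 745 counts in KO libraries, against 1385 and 1584 in WT libraries (-1.0 ± 0.09 SE, edgeR adjusted p = 4.26e-05). The summed share of this set was 1.08% and 1.22% of counts in KO libraries, against 1.40% and 1.41% in WT libraries.

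Transcripts of the cytokines known to induce these genes were mostly near 0 in these libraries. The libraries came from isolated epithelial cells, so cytokine transcripts of the whole tissue were not measured. Of 12 cytokine genes, 5 were tested, of which 4 were higher in KO (23.0% of all genes tested) and 1 did not pass. Of the 5, 2 reached the count filter through the KO libraries, and 62.3% of all such genes were called higher. The count of 4 therefore cannot be read against 23.0%. Il22, Il17a, Il36a and Il6 had at most 1 count in any library, and Il23a at most 3. Il17f had 2 and 1 counts in KO libraries, against 0 and 0 in WT libraries. Il17c had 3 and 10 counts in KO libraries, against 0 and 1 in WT libraries. None of these cytokine genes had enough counts to be tested. Tnf had 115 and 120 counts in KO libraries, against 6 and 11 in WT libraries (log2 fold change 3.79 ± 0.28 SE, edgeR adjusted p = 1.29e-05). Il1b had 45 and 48 counts in KO libraries, against 10 and 14 in WT libraries (1.97 ± 0.31 SE, edgeR adjusted p = 0.00104). Il36g rose by 1.91 and Il33 by 0.93 (log2), and Il18 had -0.40 and did not pass (edgeR adjusted p = 0.0507).

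Of 17 receptors and signal transducers, all tested, 7 were higher, 2 lower and 8 did not pass, where 23.0% of all genes tested were higher and 20.8% lower. Of the 17, 1 (Nod2) reached the count filter through the KO libraries, and 62.3% of all such genes were called higher. Tlr5, called lower, reached it through the WT libraries, and the share called lower among such genes was not computed. The count of 2 lower therefore cannot be read against 20.8%. Socs3, the feedback inhibitor induced by STAT3, had 691 and 656 counts in KO libraries, against 74 and 69 in WT libraries (log2 fold change 3.26 ± 0.11 SE, edgeR adjusted p = 1.89e-07). The NF-κB cofactor Nfkbiz rose by 1.44, the peptidoglycan sensor Nod2 by 2.67, the Toll-like receptor adaptor Myd88 by 0.69 and the interleukin-17 receptor subunit Il17rc by 0.49 on the log2 scale. The 2 lower genes were the interleukin-22 receptor subunit Il22ra1 (-0.38 ± 0.09 SE, edgeR adjusted p = 0.0107) and the Toll-like receptor Tlr5 (-2.9 ± 0.6 SE, edgeR adjusted p = 0.00439). Tlr5 had 1 and 3 counts in KO libraries, against 17 and 15 in WT libraries. Stat3 itself had 0.14 ± 0.08 (SE) and did not pass (edgeR adjusted p = 0.21). The median over the 17 genes was 0.14, against -0.002 over all genes tested.

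Goblet and Paneth cell markers were read beside Ang4 and Itln1. Of 10 goblet cell markers, 5 were higher and 2 lower in KO (23.0% and 20.8% of all genes tested), and their summed level was 8087 and 8702 FPKM in KO libraries, against 8304 and 8924 FPKM in WT libraries. Of 8 Paneth cell markers, the 5 defensins Defa17, Defa21, Defa22, Defa24 and Defa5 were not listed in any library and Defa30 had 1 count in all. Lyz1 did not pass (log2 fold change 0.14, edgeR adjusted p = 0.586), and Mmp7, which processes defensins in Paneth cells and is also induced in injured epithelium, had 123 and 124 counts in KO libraries, against 4 and 1 in WT libraries (5.58 ± 0.37 SE, edgeR adjusted p = 6.82e-06). The Paneth list summed to 39.9 and 41.4 FPKM in KO libraries, against 16.8 and 15.4 FPKM in WT libraries. The rise in this sum was that of Mmp7, with 26.55 and 22.5 FPKM in KO libraries and 0.93 and 0.2 FPKM in WT libraries. Lyz1 had 13.35 and 18.42 FPKM in KO libraries, against 15.87 and 15.17 FPKM in WT libraries. T and innate lymphoid cell markers summed to 64.5 and 66.1 FPKM in KO libraries, against 53.8 and 58.4 FPKM in WT libraries, with 6 of 8 higher and 1 lower (23.0% and 20.8% of all genes tested). Of these 8, 4 reached the count filter through the KO libraries, and 62.3% of all such genes were called higher. The count of 6 therefore cannot be read against 23.0%. Pancreatic acinar markers, read because the Reg family is abundant in pancreas, summed to 52.4 and 71.3 FPKM in KO libraries, against 2085 and 2286 FPKM in WT libraries, nearly all of it Sycn and Cela1. Pnlip and Amy2a5 were not listed, and Cpa1, Ctrb1 and Cel had at most 1 count in any library. The sum is therefore a level of Sycn and Cela1 and not of the acinar list as a whole.

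**Figure D5:**
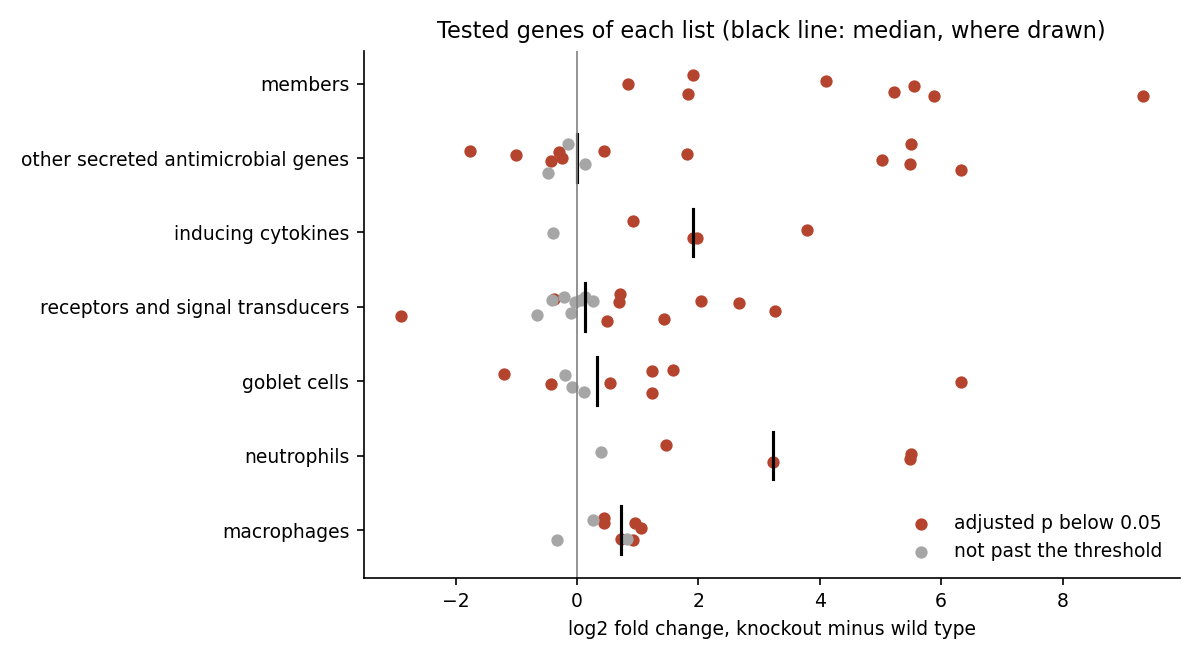
Log2 fold changes, KO minus WT, of the tested genes of 7 lists, with a point per gene (red where edgeR's adjusted p is below 0.05, grey otherwise) and, for the lists other than the members, a black line at the median. Ly6g is left out of the neutrophil genes, since the replicate 2 files alone list it. The 8 members lie right of 0, while the other antimicrobial genes spread to both sides, between -1.76 for Reg4 and 6.33 for Retnlb.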

How the data were processed

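RNA from 4 libraries was measured, 2 per genotype, made per the labels' protocols from Trizol-extracted total RNA with an Illumina TruSeq kit. The authors deposited per library a gene identifier, its RefSeq transcripts, a length (unit other), an expected count (an estimated count, possibly with a fraction) and the count scaled to length and library total as FPKM, per the file headers. The submitters' processing notes name Bowtie2, BWA and the human build hg19, although the transcripts are mouse, so no coordinates were taken from the files. The counting tool is not named there. Symbols came from RefSeq (GRCm38.p6), with 99.7% of 18872 identifiers matched. Itln2, which RefSeq gives as another name of Itln1, was left unmatched. A gene missing from a file was set to 0. Replicate 1 and replicate 2 files gave other transcript lists for 556 genes listed in all 4 files. Files of the same replicate number differed for 0 of these genes. The listed members had the same transcripts in every file that lists them.

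Rounded counts were fitted in R 4.3.3 by edgeR 4.0.16 (filterByExpr with a minimum count of 10, TMM, glmQLFit and glmQLFTest, two-sided, Benjamini-Hochberg over 13608 genes, threshold 0.05). The standard error is the log2 fold change over the square root of F. Count ratios are scaled to TMM library sizes, with exact Clopper-Pearson intervals of 95%, which cover counting error only. The fits were tested on simulated data. Libraries of a group differed beyond sampling noise (chi-square per degree of freedom 5.22 between KO and 4.31 between WT libraries) and were kept apart. DESeq2 1.42.0 and limma 3.58.1 (on log2 of FPKM plus 1 or 0.01) were among the alternatives. Named genes are all members, up to 6 of each pathway list by smallest p and up to 3 of each cell type list by FPKM, and 1 gene that this rule names is not reported here. Relatives named in the closing section, genes named as not listed, near 0 or not tested, and Il22ra1, Tlr5 and Stat3 were chosen after their values were seen. Members, lists and motifs were chosen with earlier results of these data known. Promoter windows were aligned with Biopython 1.88.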

Additional observations from a re-analysis of the deposited data

How the results depend on the processing

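Over the 12 alternatives run, 94 of 96 member values kept their direction and their side of the threshold and 0 reversed. The other 2 were the Ang4 values without KO replicate 1 (1.08) and without WT replicate 1 (1.51). DESeq2, run without edgeR's count filter, called 3917 of 18798 genes, 2196 of them higher. EdgeR called 5950 of 13608 genes, 3126 of them higher, and both called the same number of members, 8. With a library left out, the spread comes from the other group alone, so numbers of calls are not compared. The alternatives with all 4 libraries gave 8 members higher and 0 lower. This count cannot be read against the share of all genes, because 6 of the 8 reached the count filter through the KO libraries. Higher genes made up 52.5% of called genes with TMM and 42.4% with library totals, where the median of all genes was -0.103. Same-numbered libraries share a number in the labels but no stated origin. Their deviations from the group means correlated at 0.281 over 13070 genes with the same transcripts. With the replicate block edgeR called 7403 of 13608 genes, 3855 of them higher, and 8 members. Reg3b, Reg3g, Ltf and Pla2g2a rest on at most 5 counts in any WT library, so depth limits the size of their folds. Their log2 fold changes were lower with limma on log2(FPKM + 1), for example 3.69 for Reg3g and 3.95 for Ltf, since that pseudocount is large beside their WT levels.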

Other observations

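Relatives of the members did not all move with them. The secreted phospholipase Pla2g5 had 312 and 237 counts in KO libraries, against 68 and 90 in WT libraries (log2 fold change 1.82 ± 0.19 SE, edgeR adjusted p = 8.3e-05), and Pla2g10, another of the family, had 491 and 541 counts in KO libraries, against 664 and 615 in WT libraries (-0.29 ± 0.10 SE, edgeR adjusted p = 0.0462). Ang, the relative of Ang4 with a longest shared run of 31 bases, had 34.7 and 41.0 estimated counts in KO libraries, against 44.5 and 63.1 in WT libraries, and did not pass (-0.47, edgeR adjusted p = 0.181). Pglyrp2 had 7 and 13 counts in KO libraries, against 5 and 6 in WT libraries, and was not tested. Of the lysozymes, Lyz2, which macrophages also make, had a log2 fold change of 0.44 ± 0.10 (SE, edgeR adjusted p = 0.0077), and Lyz1 did not pass. Lyz1 and Lyz2 are near-identical and their counts were not whole, so reads could be split between them.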
